A study of Mus musculus with 38 samples.

Results

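The promoters described here belong to the 4 CDC2-like kinases (*Clk1* to *Clk4*) and 6 serine/arginine-rich (SR) splicing factors (*Srsf1*, *Srsf2*, *Srsf3*, *Srsf5*, *Srsf6* and *Srsf7*). The RNA starting at them was measured by nAnT-iCAGE, a form of cap analysis of gene expression. It reads the capped end of RNAs without PCR, so that each tag marks the start of 1 RNA molecule. A CAGE cluster is a group of neighbouring start sites. A cluster was taken as a promoter of a member when its highest peak was no more than 500 bp from a 5′ end annotated for the gene on its strand. Each of the 10 genes had exactly 1 such cluster among the 10819 clusters of the series, and no gene was without one.

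The tissue was the soleus, a postural leg muscle rich in slow fibers, of young adult male C57BL/6J mice with no genetic change. The series holds 38 libraries. Experiment #1 had 28 libraries, with 4 Pre mice (fed freely, day 1), 8 Mid mice (torpor induced by removing food, day 2), 4 Post mice (food returned, day 3), 4 HiT mice (day 2 at high ambient temperature, where torpor did not occur), 4 Fed mice (fed throughout, day 2) and 4 Dep mice (day 2 without food, torpor prevented by gentle touching). Experiment #2 was a separate set of 2 Pre, 5 Mid and 3 Post mice. The groups follow the sample titles. The study's methods describe the HiT mice as fasted, whereas the series description gives them food, and the condition label of the Fed libraries reads starvation. The account in the methods is followed below, and a difference in food between the HiT and Mid mice cannot be told apart from one in temperature if the series description is right. The study describes the Mid and Fed mice as kept at a low ambient temperature. The Mid and HiT mice differed both in ambient temperature and in torpor, which also cannot be told apart in that comparison. By the study's account, oxygen consumption at sampling varied widely among the Mid mice, with some torpid and some between bouts. It reports a lower consumption in HiT than in Mid, and in Dep a level like that of the non-torpid Mid mice.

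CLK proteins are nuclear kinases that phosphorylate the serine- and arginine-rich tails of SR proteins. SR proteins bind exonic sequences in pre-mRNA and recruit the splicing machinery, and their phosphorylation sets when they leave nuclear speckles and bind. The activity of CLK kinases is known to rise as cells are cooled, and the *Clk1* and *Clk4* transcripts retain introns or skip an exon in a temperature-dependent way. Several SR genes limit their own level through a poison exon, a stretch that brings a stop codon into the mRNA and leads to its decay. CAGE sees only the 5′ end of the RNA present, so the splice forms, the kinase activity and the decay of the RNA were not measured here.

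Promoter sequences are shown for the 3 genes that differed between the Mid and HiT mice (*Srsf5*, *Clk4* and *Srsf7*) and for the 2 SR genes with a match to the TATA box letters searched (*Srsf2* and *Srsf3*). They are from RefSeq on GRCm38.p6, the assembly of mm10. Each run has 120 bases, 5′ to 3′ on the strand of the gene, and ends just before the RefSeq start of the gene. Capitals mark the GC box, the CCAAT box, the TATA box, the cyclic AMP response element and the mild-cold element, read on either strand and spelled out after the sequences.
Srsf5: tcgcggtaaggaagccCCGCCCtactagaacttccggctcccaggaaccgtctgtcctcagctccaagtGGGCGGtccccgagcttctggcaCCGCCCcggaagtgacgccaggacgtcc
Clk4: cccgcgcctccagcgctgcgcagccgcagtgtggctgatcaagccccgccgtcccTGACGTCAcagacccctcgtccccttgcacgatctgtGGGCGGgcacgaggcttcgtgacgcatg
Srsf7: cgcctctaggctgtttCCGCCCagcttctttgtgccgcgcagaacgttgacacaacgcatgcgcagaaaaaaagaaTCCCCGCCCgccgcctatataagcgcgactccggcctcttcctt
Srsf2: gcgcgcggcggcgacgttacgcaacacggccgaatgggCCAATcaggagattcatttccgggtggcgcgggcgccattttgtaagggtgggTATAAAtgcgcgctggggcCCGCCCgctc
Srsf3: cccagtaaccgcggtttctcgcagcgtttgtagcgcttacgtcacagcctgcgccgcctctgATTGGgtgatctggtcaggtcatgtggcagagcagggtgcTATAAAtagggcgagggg
The runs lie at chr12:80945379-80945498 (plus strand), chr11:51262994-51263113 (plus), chr17:80207306-80207425 (minus), chr11:116853095-116853214 (minus) and chr17:29032540-29032659 (plus). The last base lay 34 bases before the CAGE peak of *Srsf5*, 71 before that of *Clk4*, 1 before that of *Srsf7*, 3 before that of *Srsf2* and 12 before that of *Srsf3*.

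The first base of the TATA box lay 31 bases upstream of the CAGE peak of *Srsf2* and 29 bases upstream of that of *Srsf3*, and 13.6% of the 32851 RefSeq windows of 300 bases contain TATAAA. *Srsf7* has the related run tatataag near its start, which these letters do not match, and such variants were not searched. *Clk4* carried the cyclic AMP response element TGACGTCA 135 bases upstream of its peak, a match held by 1.79% of all windows. *Srsf7* held the mild-cold element TCCCCGCC, known from the promoter of *Cirbp*, 44 bases upstream, where it overlaps a GC box, and 5.38% of windows have it. Of the 9 members with a window, 8 had the GC box GGGCGG (35.7% of all windows) and 4 a CCAAT box (37.4%). *Clk2* had the E-box CACGTG (7.15%). No member window held the heat shock element core GAANNTTC (7.86%) or the letters TCTCGCGA (0.995%). The windows were rich in CpG, with 20 to 45 CpG each against a median of 7 over all windows, and with a GC content of 56.0 to 74.7% against a median of 52.7%. The peaks of *Clk3*, *Clk4* and *Srsf1* lay beyond the RefSeq window, by 213, 21 and 297 bases, so for these genes the letters searched are not those around the start that was used. No window was given for *Clk1*.

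For 9 members the highest peak was at most 2 bp from an annotated 5′ end, and for *Clk1* it was 42 bp downstream. The clusters were 135 bp (*Clk1*) to 560 bp (*Srsf2*) wide, against a median of 281 bp over all clusters. On mm10 they lay at chr1:58423966-58424100 (*Clk1*), chr3:89164760-89165103 (*Clk2*), chr9:57764720-57764940 (*Clk3*), chr11:51263032-51263246 (*Clk4*), chr11:88047582-88048084 (*Srsf1*), chr11:116852612-116853171 (*Srsf2*), chr17:29032603-29032768 (*Srsf3*), chr12:80945432-80945749 (*Srsf5*), chr2:162931410-162931740 (*Srsf6*) and chr17:80207178-80207421 (*Srsf7*). Each cluster spans an annotated 5′ end of its gene, that is, the start of a first exon.

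Tags in clusters numbered 18257657 to 39176649 per library in experiment #1 and 9359994 to 20914855 in experiment #2. Levels are given as counts relative to library size (CPM) after TMM scaling, which corrects for libraries whose most abundant promoters take an unusual share of the tags. HiT 4 stood apart, with a TMM factor of 0.679 (0.797 to 1.21 in the other libraries of experiment #1) and 40.3% of its tags in its 10 highest clusters (15.1 to 31.5% in the others). All 8 slow muscle marker genes had clusters, and their summed level was 11573 to 14704 CPM in the HiT libraries and 13763 to 19024 CPM in the Mid libraries. Macrophage markers stood higher in HiT. The sum over the 5 of 6 macrophage genes that had a cluster was 138 to 310 CPM in the HiT libraries and 40.4 to 93.6 CPM in the other libraries of experiment #1, with Cd68, Csf1r, Lyz2, Mrc1 and Cd163 each present and Adgre1 without a cluster. Neutrophil markers (4 of 6 genes with a cluster) summed to 133 CPM in Dep 1 and to at most 1.56 CPM in the other libraries of experiment #1. The parts of these cells in the results were not tested. In whole muscle, more cells of a type and more RNA per cell cannot be told apart.

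The levels of the 10 promoters spanned 5.32 CPM (*Clk3*) to 243 CPM (*Srsf5*) as means over the 28 libraries of experiment #1, against a median of 17.5 CPM over all clusters. Since each RNA gives 1 tag, these levels do not depend on transcript length. Among the kinases, *Clk4* was highest (34.5 CPM), followed by *Clk1* (22 CPM), while *Clk2* (6.42 CPM) and *Clk3* were low. Among the SR factors, *Srsf5* was followed by *Srsf2* (133 CPM), *Srsf3* (57.0 CPM), *Srsf7* (37.9 CPM), *Srsf1* (33.7 CPM) and *Srsf6* (25.3 CPM). The spread between mice of a group, as the biological coefficient of variation, was between 9.47% (*Srsf7*) and 14.3% (*Srsf5*) for the SR factors. Among the kinases it was 12.6% for *Clk4*, within the range of the SR factors, and wider for *Clk1* (16.9%), *Clk3* (18.3%) and *Clk2* (23.4%).

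**Figure D1:**
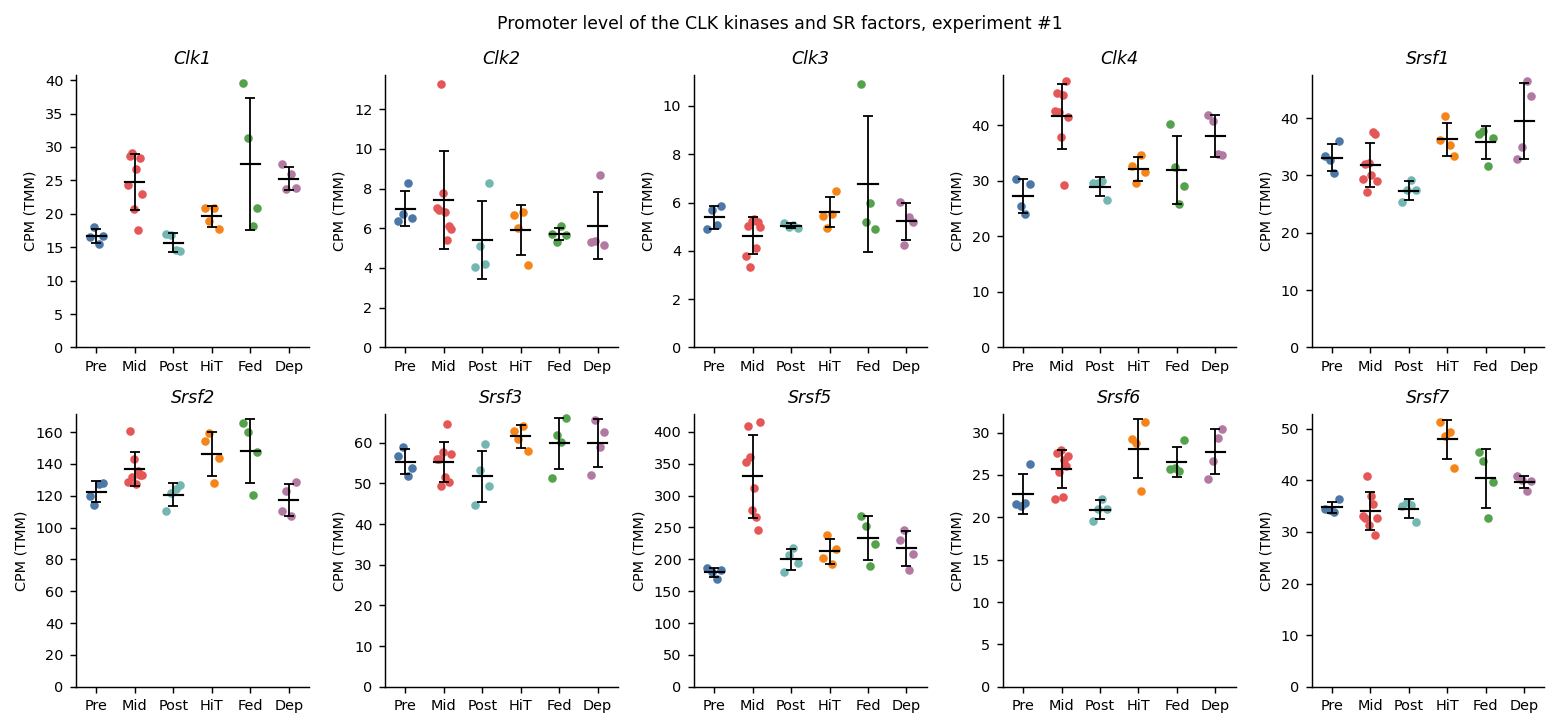
Level of each promoter in CPM after TMM scaling (y axis, from 0) by group (x axis) in experiment #1; points are mice, horizontal lines are means and bars are 1 SD. *Srsf5* is highest in the Mid group and *Srsf7* in the HiT group.

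From the HiT to Mid, the promoters of *Srsf5* and *Clk4* were up-regulated and that of *Srsf7* was down-regulated. The change was 1.55-fold for *Srsf5* and 1.30-fold for *Clk4*, and *Srsf7* stood at 0.711 of its HiT level. The other 7 promoters did not pass the threshold of an FDR of 0.05. The 3 called of 10 compare with 41.0% of all 10776 clusters called in this comparison, so the members were not called more often than promoters in general. Their median log2 fold change was -0.11, and that over all clusters was 0.02.

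*Srsf5* encodes an SR factor first found as an early growth-response gene of regenerating liver. Its level in the HiT libraries was 201, 238, 193 and 217 CPM, and in the Mid libraries it ranged from 246 to 416 CPM with a median of 333 CPM. All 8 Mid libraries lay above all 4 HiT libraries. The log2 fold change was 0.64 (SE 0.12, n = 8 and 4), with an FDR of 0.000213 by the quasi-likelihood test of edgeR. *Srsf7*, an SR factor with a zinc knuckle that binds RNA and also takes part in mRNA export, moved the other way. Its level was 51.4, 48.5, 49.4 and 42.5 CPM in the HiT libraries and 29.4 to 40.9 CPM in the Mid libraries, with a median of 32.9 CPM. Here too the groups did not overlap. *Srsf7* fell by 0.49 on the log2 scale (SE 0.08), with an edgeR FDR of 1.77e-05. Over all clusters, 7.40% had every Mid library above every HiT library, as *Srsf5* did, and 11.4% had every Mid library below, as *Srsf7* did.

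*Clk4* stood at 32.6, 29.6, 34.6 and 31.5 CPM in the HiT libraries and at 29.3 to 47.9 CPM in the Mid libraries, with a median of 42.4 CPM. The groups overlapped through Mid 6 alone, the lowest of the Mid libraries. Its log2 fold change was 0.37 (SE 0.11), with an edgeR FDR of 0.0085. *Clk1* stood at 20.8, 19, 20.8 and 17.8 CPM in the HiT libraries and at 17.6 to 29.1 CPM in the Mid libraries, where Mid 6 was again the lowest and 1 other, at 20.7 CPM, lay within the HiT range. For *Clk1* the log2 fold change was 0.34 (SE 0.15, 95% interval 0.04 to 0.63), with an edgeR FDR of 0.074. Without Mid 6 the FDR of *Clk1* was 0.0169, without Fed 1 0.0356, without Fed 3 0.0428, and with DESeq2 0.0484. These were the only 4 of 37 alternatives in which *Clk1* passed, and its highest FDR was 0.145, without HiT 2.

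The other kinases gave wide intervals. *Clk2* had a log2 fold change of 0.32 (95% interval -0.10 to 0.74) and *Clk3* of -0.28 (-0.60 to 0.05). Among the SR factors, the log2 fold change was -0.19 for *Srsf1* (95% interval -0.37 to -0.01), -0.10 for *Srsf2* (-0.25 to 0.05), -0.15 for *Srsf3* (-0.31 to 0.00) and -0.13 for *Srsf6* (-0.29 to 0.03). These 4 SR factors had a lower mean in the Mid than in the HiT group, by less than the threshold of the test. A log2 fold change of 1 in either direction lies outside the intervals of all 7 promoters that did not pass.

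**Figure D2:**
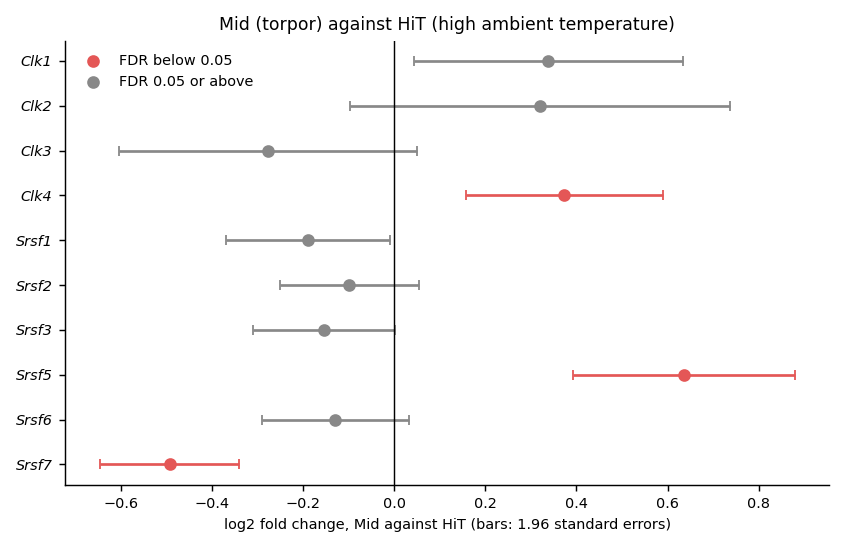
Log2 fold change of each promoter in the Mid group against the HiT group (x axis) with 95% intervals as bars, red where the FDR is below 0.05. *Srsf5* (0.64) and *Clk4* (0.37) lie to the right of 0 and *Srsf7* (-0.49) to the left.

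The HiT libraries were also compared with the other groups, none of which was kept at high ambient temperature. These comparisons share the 4 HiT libraries, and so do not test the same change independently. *Srsf7* was lower than in the HiT in all of them. Its level was 38 to 40.8 CPM in Dep (log2 fold change -0.27, FDR 0.0276), 33.9 to 36.4 CPM in Pre (-0.46, FDR 0.000321), 32 to 35.9 CPM in Post (-0.47, FDR 0.000298) and 32.7 to 45.6 CPM in Fed (-0.25, FDR 0.0308). The HiT range for *Srsf7*, 42.5 to 51.4 CPM, overlapped with that of Fed and with no other group. Over all clusters, all libraries lay below all HiT libraries at 14.2% for Dep, 18.5% for Pre and 16.1% for Post. *Srsf7* thus had its highest mean in the HiT group and its lowest in the Mid group (34.1 CPM), the latter within the spread of Pre (34.8 CPM) and Post (34.5 CPM).

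The Dep mice, fasted but kept from torpor by touching, differed from the HiT mice at 2 of 10 promoters, both lower in Dep, against 26.5% of all clusters. Besides *Srsf7* this was *Srsf2*, an SR factor that stays in the nucleus, with 111, 123, 108 and 129 CPM in Dep and 154, 159, 128 and 144 CPM in HiT (log2 fold change -0.32, SE 0.09, edgeR FDR 0.00988). *Srsf2* of Dep 4 lay within the HiT range. Both calls depend on HiT 1, since without it the FDR was 0.0547 for *Srsf2* and 0.129 for *Srsf7*. That of *Srsf7* was also lost without HiT 2, HiT 3, Dep 3 or Dep 4, with an FDR of 0.0578 to 0.0724. *Srsf5* did not follow the Mid group here, with 183 to 246 CPM in Dep and a log2 fold change of 0.03 from the HiT (95% interval -0.24 to 0.31). *Clk1* and *Clk4* had all 4 Dep libraries above all 4 HiT libraries (23.7 to 27.5 and 34.7 to 41.8 CPM, found in this direction at 11.8% of clusters), without passing the threshold (log2 fold changes 0.37 and 0.24, edgeR FDR 0.12 and 0.161). With only the Dep and HiT libraries in the fit *Clk1* was called (FDR 0.0117).

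The Fed mice differed from the HiT mice at 2 of 10 promoters, against 43.2% of all clusters. *Clk1* was higher in Fed (log2 fold change 0.48, edgeR FDR 0.0263) and *Srsf7* lower. The 4 Fed libraries read 39.6, 31.3, 18.2 and 20.8 CPM for *Clk1*, so that 2 of them lay within the HiT range. Without Fed 1 the FDR of *Clk1* was 0.205, and without HiT 2 neither call was made. The call of *Srsf7* was also lost without HiT 1, Fed 3 or Fed 4, and that of *Clk1* without HiT 4 or Fed 2. The Pre mice had 3 promoters lower than the HiT mice (*Srsf2*, *Srsf6* and *Srsf7*), against 33.4% of clusters called, and the Post mice had 5 (*Srsf1*, *Srsf2*, *Srsf3*, *Srsf6* and *Srsf7*), against 29.2%. The log2 fold changes were -0.26 to -0.46 from the HiT to Pre and -0.25 to -0.47 from the HiT to Post. *Srsf1*, a founding SR factor that also acts in nonsense-mediated decay, fell by 0.41 from the HiT to Post, and *Srsf6* by 0.43. No member was called higher in Pre or Post than in HiT. With library sizes not scaled by TMM, none of these 8 calls was made, and neither were those of *Srsf7* in Dep and Fed or of *Srsf2* in Dep. Without HiT 1 or HiT 4, *Srsf7* alone was called in Pre, where the call of *Srsf2* was also lost without HiT 2, Pre 1 or Pre 2. Without Post 1, HiT 1, HiT 2 or HiT 4 the count in Post was 3. The call of *Srsf3* in Post held under 23 of 37 alternatives and was lost whichever HiT library was left out. The macrophage marker sums of the HiT libraries given above lay above those of every other group, and so move with every comparison to HiT. The slow muscle sums of HiT, at most 14704 CPM, overlapped those of Mid (from 13763 CPM), Fed (from 12807 CPM) and Dep (from 14222 CPM). They lay below all those of Pre (from 15817 CPM) and Post (from 16249 CPM), and so move with these comparisons too.

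**Figure D3:**
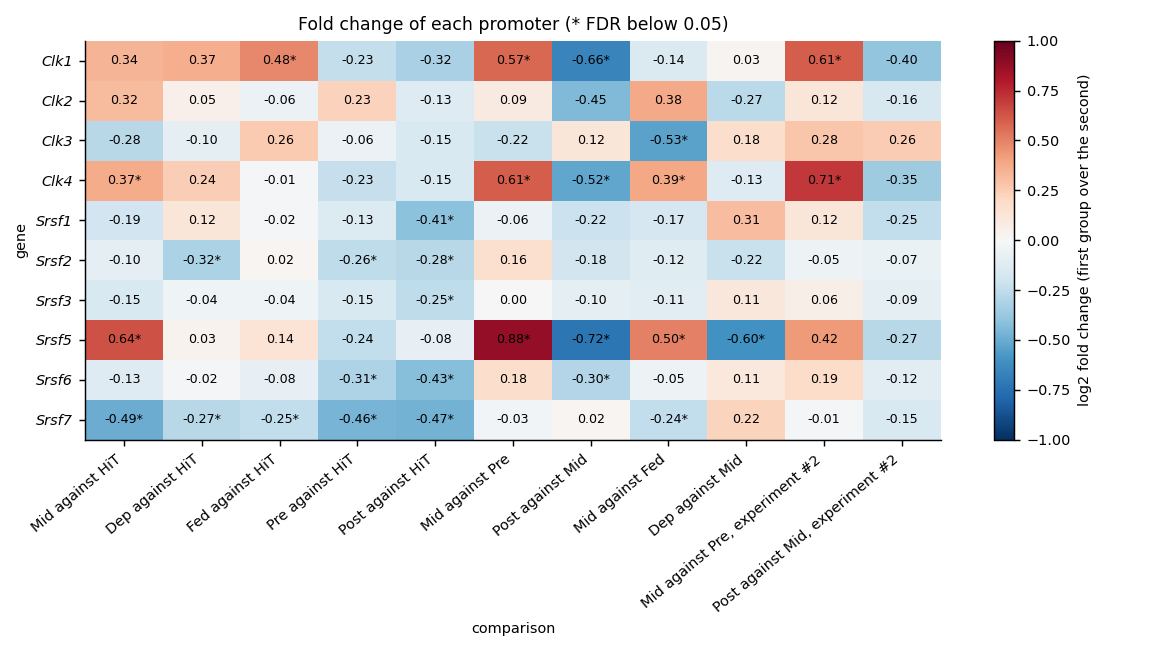
Log2 fold change of each promoter (rows) in each comparison (columns, first group over the second), with the value printed and a star where the FDR is below 0.05. *Srsf7* is lower in each of the 5 groups than in HiT, and *Srsf5*, *Clk1* and *Clk4* rise from the Pre to Mid and fall from the Mid to Post in experiment #1.

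Over the torpor cycle, *Srsf5*, *Clk4* and *Clk1* were up-regulated from the Pre to Mid, by 1.84-fold, 1.52-fold and 1.49-fold. All 3 were down-regulated from the Mid to Post, together with *Srsf6*. The count was 3 of 10 from the Pre to Mid, against 30.2% of all clusters, and 4 of 10 from the Mid to Post, against 35.0%. Both steps share the Mid libraries, so a high Mid level alone gives both changes.

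*Srsf5* was at 186, 180, 169 and 183 CPM in Pre and at 181, 207, 219 and 195 CPM in Post. All 8 Mid libraries, from 246 CPM up, lay above both groups, which was so at 7.54% of all clusters for Pre and at 7.98% for Post. The log2 fold change of *Srsf5* was 0.88 (SE 0.13, edgeR FDR 9.6e-06) from the Pre to Mid and -0.72 (SE 0.12, edgeR FDR 6.85e-05) from the Mid to Post. *Clk4* was at 30.3, 25.4, 24 and 29.5 CPM in Pre and at 29.6 CPM in Post 1 and Post 2, slightly above that in Post 3 and at 26.5 CPM in Post 4, and only Mid 6, at 29.3 CPM, reached into these ranges. Its log2 fold changes were 0.61 (SE 0.11, edgeR FDR 0.000194) and -0.52 (SE 0.11, edgeR FDR 0.000686). *Clk1* was at 16.5, 18.1, 15.4 and 16.7 CPM in Pre and at 17, 16.8, 14.5 and 14.4 CPM in Post. All Mid libraries exceeded the Post libraries, and Mid 6 (17.6 CPM) alone lay within the Pre range. The log2 fold changes of *Clk1* were 0.57 (SE 0.15, edgeR FDR 0.00555) and -0.66 (SE 0.15, edgeR FDR 0.00151). From the Pre to Mid, the FDR of *Clk1* was 0.079 without TMM scaling.

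*Srsf6*, an SR factor with paired RNA-binding domains, was at 22.2 to 28 CPM in Mid and 19.5 to 22.2 CPM in Post, and fell by 0.30 on the log2 scale (SE 0.08, edgeR FDR 0.00741). Without TMM scaling this call was lost (FDR 0.229). *Srsf3*, the smallest SR protein, changed little from the Pre to Mid, with a log2 fold change of 0.00 (95% interval -0.16 to 0.16). *Srsf7* gave -0.03 (-0.18 to 0.13) and *Srsf1* -0.06 (-0.24 to 0.12). For *Clk2* and *Clk3* the log2 fold changes were 0.09 (-0.33 to 0.50) and -0.22 (-0.55 to 0.11). *Srsf7* therefore differed between the HiT and Mid while its Pre, Mid and Post levels lay within 29.4 to 40.9 CPM.

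Fed mice were sampled on the same day as the Mid mice. From the Fed to Mid, *Srsf5* (log2 fold change 0.50, edgeR FDR 0.00263) and *Clk4* (0.39, FDR 0.00836) were up-regulated and *Clk3* (-0.53, FDR 0.0137) and *Srsf7* (-0.24, FDR 0.0177) were down-regulated. The 4 called of 10 compare with 35.2% of all clusters. *Srsf5* was at 268, 253, 189 and 223 CPM in Fed, so the lowest Mid libraries reached into the Fed range. *Clk4* was at 40.2, 32.4, 25.9 and 29.1 CPM in Fed, again with an overlap. The call of *Clk3* depends on Fed 1, which read 10.9 CPM against 4.90 to 5.98 CPM in the other Fed libraries and 3.32 to 5.30 CPM in Mid, and without it the FDR was 0.267. The call of *Srsf7* was lost without Fed 1 (FDR 0.107) or without Fed 2 (FDR 0.0852). Fed 1 also had the highest *Clk1* of experiment #1 and the smallest number of tags. With only the Fed and Mid libraries in the fit, *Srsf5* alone was called, and without TMM scaling *Clk3* alone.

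The Dep and Mid mice, both without food on day 2, differed at 1 promoter. *Srsf5* was at 230, 246, 183 and 209 CPM in Dep, with Dep 2 just above the lowest Mid library (both 246 CPM) and the other 3 below all Mid libraries. From the Mid to Dep it fell by 0.60 on the log2 scale (SE 0.12, edgeR FDR 0.0163). This is 1 of 10 members against 2.03% of all clusters. The FDR of *Srsf5* was 0.147 with only the Mid and Dep libraries in the fit and 0.0994 without TMM scaling. *Clk1* was at 27.5, 23.7, 26 and 23.9 CPM in Dep, within the Mid range, with a log2 fold change of 0.03 (95% interval -0.26 to 0.32). *Clk4* gave -0.13 (-0.34 to 0.09). *Srsf1* was at 32.9, 35.0, 46.6 and 43.8 CPM in Dep and 27.2 to 37.6 CPM in Mid, with a log2 fold change of 0.31 and an edgeR FDR of 0.0714.

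From the Pre to Mid, *Clk1* and *Clk4* were up-regulated in experiment #2 too, 2 of 10 against 9.74% of all 10816 clusters. *Clk1* was at 19.8 and 23.0 CPM in Pre and at 32.1, 31.8, 28.6, 29.4 and 40.6 CPM in Mid, with no overlap. The log2 fold change was 0.61 (SE 0.16, edgeR FDR 0.039). *Clk4* was at 24.4 and 24.8 CPM in Pre and at 47.0, 31.1, 39.1, 37.8 and 45.9 CPM in Mid, again with no overlap and with a log2 fold change of 0.71 (SE 0.17, edgeR FDR 0.0278). *Srsf5* was at 178 and 205 CPM in Pre and at 257, 212, 283, 247 and 285 CPM in Mid. All Mid libraries lay above both Pre libraries, as at 15% of all clusters, but with a log2 fold change of 0.42 (SE 0.13) the edgeR FDR was 0.0612. *Srsf5* was called by DESeq2 (FDR 0.0104) and by the likelihood ratio test (FDR 0.0432). Without Pre 5 or without Pre 6 no member was called, and without Mid 10 the FDR of *Srsf5* was 0.0164. The call of *Clk1* was also lost without Mid 9, Mid 12 or Post 5 (FDR 0.0509 to 0.0638), and that of *Clk4* without Mid 13 (FDR 0.0532). The sequencing lanes of experiment #2 were not balanced, since both Pre libraries and 4 Mid libraries were run in lane 3 and all 3 Post libraries and Mid 13 in lane 4. With the lane as a term *Clk1* was called and *Clk4* had an FDR of 0.0533. From the Mid to Post no member passed the threshold, against 16.4% of clusters, although 4 of 10 had an unadjusted p below 0.05 in the edgeR test, and DESeq2 called 0 as well. With the lane as a term, this step sets the 3 Post libraries against Mid 13 alone, the only Mid library of their lane. The log2 fold change of *Clk1* was then -0.72, which rests on that 1 mouse. Without Post 7 *Clk1* was called (-0.52, edgeR FDR 0.0438). Without Mid 10 *Clk4* (-0.43, edgeR FDR 0.0408) and *Srsf5* (-0.33, edgeR FDR 0.0363) were called. In the main fit, the log2 fold changes were -0.40 for *Clk1* (95% interval -0.66 to -0.13), -0.35 for *Clk4* (-0.63 to -0.07), -0.27 for *Srsf5* (-0.49 to -0.06) and -0.25 for *Srsf1* (-0.43 to -0.07). All 3 Post libraries but 1 lay below all Mid libraries for *Clk1*, the exception being Post 7 at 28.8 CPM.

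**Figure D4:**
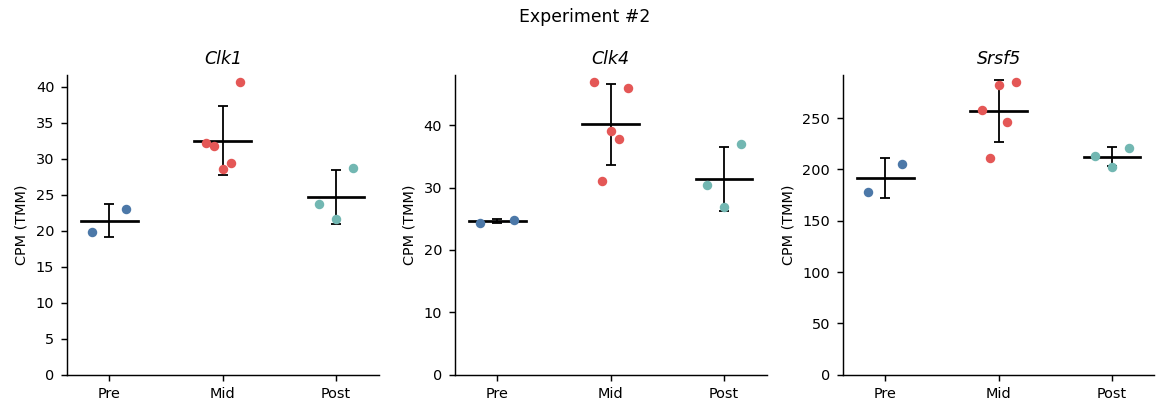
Level of *Clk1*, *Clk4* and *Srsf5* in CPM after TMM scaling (y axis, from 0) in the Pre, Mid and Post mice of experiment #2; points are mice, horizontal lines are means and bars are 1 SD. The Mid mice lie above both Pre mice for all 3 promoters.

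The change between groups was tested for a difference between experiments with an interaction term. No member passed the threshold at either step, and no cluster of the series did (0% called). At an unadjusted p below 0.05 there were 0 members for the change from the Pre to Mid and 1 for that from the Mid to Post, and DESeq2 called 0 members for both. The latter was *Srsf5*, whose log2 fold change was smaller in size by 0.42 (95% interval 0.04 to 0.80) in experiment #2, with an FDR of 0.859. From the Pre to Mid the difference for *Srsf5* was -0.43 (-0.84 to -0.01, with p = 0.0575 in the edgeR test). *Clk1* gave 0.06 (-0.36 to 0.48) and *Clk4* 0.13 (-0.28 to 0.54). These intervals are too wide to show that the changes are alike.

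The mean levels of 3 promoters differed widely between the experiments, which were scaled separately, and the methods name both a NextSeq and a HiSeq platform for them. *Clk2* was 3.07 times as high in experiment #2 (19.7 CPM) as in experiment #1, and *Clk3* 0.274 times (1.46 CPM). The same ratio lay between 0.471 and 2.75 for all but the outer 10% of the 10566 clusters of at least 1 CPM. *Srsf1* was 2.00 times as high, within that range, and the other 7 members lay between 0.773 and 1.35. These means are over all libraries of an experiment, so those of experiment #1 also include the HiT, Fed and Dep groups. Within the Mid group alone, *Srsf7* had a mean of 34.1 CPM in experiment #1 and 52.9 CPM in experiment #2. *Clk3* had as few as 9 tags in a library of experiment #2, and a change in it was hardly detectable at this depth (from the Pre to Mid, 95% interval of the log2 fold change -0.48 to 1.04). Mice, the groups included, sequencing and depth differ together between the experiments and cannot be told apart.

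*Clk1* and *Clk4* moved together between mice of the same group. The deviations of both from their group means in log2 CPM gave a Pearson r of 0.80 (p = 4e-05) and a Spearman rho of 0.68 (p = 0.00041) over the 28 libraries of experiment #1, with permutation within groups, two-sided. Without Fed 1 and Fed 3, the libraries farthest from the median of *Clk1*, r was 0.72 (p = 0.00041) and rho was 0.60 (p = 0.00162). Fed 1 deviated upwards most for both, and Mid 6 downwards most for *Clk4*. This was 1 relation tested, and the pair was chosen with earlier results known. The next highest r among the member pairs, as a description, were 0.54 for *Srsf7* and *Clk1* and 0.50 for *Srsf2* and *Srsf6*, and the lowest were -0.56 for *Srsf3* and *Clk1* and -0.46 for *Srsf3* and *Clk4*, with the libraries, their depth and their scaling shared by both axes.

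**Figure D5:**
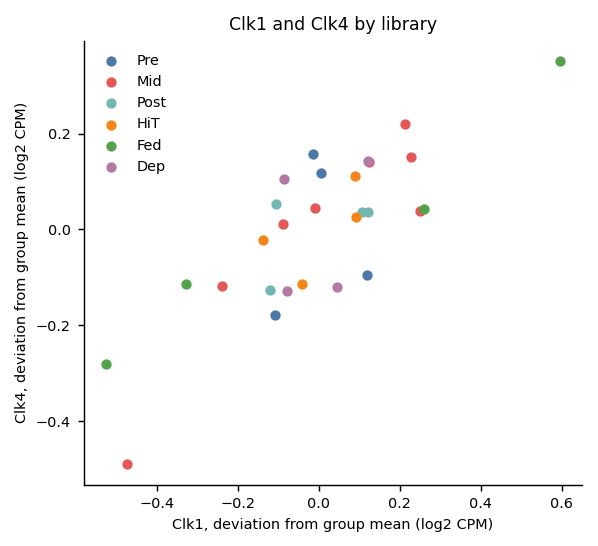
Deviation of *Clk4* (y axis) against that of *Clk1* (x axis) from the group mean in log2 CPM; each point is 1 of the 28 libraries of experiment #1, colored by group. The points rise together with r = 0.80; Mid 6 is at the lower left and Fed 1 at the upper right.

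By their levels in the same 28 libraries, the promoters most like *Clk1* among 9581 annotated clusters outside the members were those of *Ppp4r3a* (r = 0.91), *Scaf8* (r = 0.88) and *Lncpint* (r = 0.87). For *Clk4* they were *Zkscan17* (r = 0.90), *Tnrc6b* (r = 0.90) and *Rhbdf2* (r = 0.90). These r include the differences between groups, and the libraries share depth and scaling. *Tnrc6b*, for example, had a mean of 52.3 CPM in Mid, 29.5 CPM in Pre and 40.8 CPM in HiT.

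Other splicing genes were examined as lists in the same comparison, from the HiT to Mid. Of the SR proteins outside the 10 members, 1 of 6 clusters was called, *Tra2b* with a log2 fold change of -0.19 (FDR 0.0265). *Srsf9* gave -0.53 (FDR 0.0613) and *Srsf10* -0.12 (FDR 0.112), which did not pass. The list of other kinases of SR proteins and of the same CMGC kinase group had 11 clusters, of which 8 were higher and 2 lower in Mid. This is 90.9% of the list, against 41.0% of all clusters, and its median log2 fold change was 0.33 against 0.02 over all clusters. The higher ones were *Dyrk1a*, *Dyrk1b*, *Dyrk2*, *Hipk2*, *Hipk3* and *Prpf4b*, of which *Dyrk1b* and *Hipk3* had 2 promoters each. The 2 lower ones were the SR protein kinases that had a cluster, and *Srpk2* had none. *Srpk1*, which phosphorylates SR proteins in the cytoplasm, had -0.67 (SE 0.12, edgeR FDR 0.000126) and the muscle-specific *Srpk3* -0.48 (SE 0.13, edgeR FDR 0.00435). Over all 9 genes of the list that had a cluster, *Dyrk1b* rose most, with 0.82 (SE 0.16, edgeR FDR 0.000257) at one of its promoters, and *Dyrk2* gave 0.69 (edgeR FDR 0.000582). From the Mid to Post, 6 of the 11 were lower and 2 higher, 72.7% of the list against 35.0% of all clusters. The 2 higher were *Srpk3* (0.92, edgeR FDR 4.24e-06) and *Srpk1* (0.34, edgeR FDR 0.0361). Other comparisons lay nearer to the share of all clusters. The list had 36.4% called against 30.2% from the Pre to Mid, and 36.4% against 35.2% from the Fed to Mid. From the HiT to Dep it had 27.3% against 26.5%, and from the HiT to Fed 63.6% against 43.2%. In experiment #2 the share was 36.4% against 9.74% from the Pre to Mid, and 54.5% against 16.4% from the Mid to Post.

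Of the core spliceosome genes, 15 of 39 clusters were lower and 2 higher from the HiT to Mid, 43.6% called against 41.0% of all clusters, and a median log2 fold change of -0.20. *Snrpf* had -0.56 (edgeR FDR 8.79e-07), *Snrpd1* -0.75 (FDR 1.31e-06) and *Sf3b4* -0.51 (FDR 1.59e-05). The hnRNP genes, whose proteins often oppose SR factors, had 3 higher and 3 lower of 24 clusters, with *Hnrnpc* at -0.42 (FDR 0.000157), *Hnrnpm* at -0.38 (FDR 0.000234) and *Hnrnpab* at -0.35 (FDR 0.00105). SR-related and speckle proteins had 5 higher and 3 lower of 23 clusters (34.8% called), among them *U2af2* at -0.31 (FDR 0.000128), *Ddx5* at 0.38 (FDR 0.000878) and *Rsrc1* at -0.41 (FDR 0.00229). Muscle splicing regulators had 6 higher and 2 lower of 19 (42.1% called). *Rbm24* rose by 0.75 (FDR 1.56e-08), while 1 promoter each of *Rbfox2* (-1.12, FDR 1.66e-08) and *Mbnl1* (-1.83, FDR 5.14e-07) fell. All these are log2 fold changes with an edgeR FDR over all clusters.

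Genes known to respond to temperature were read as a check on the contrast. *Cirbp* and *Rbm3*, RNA-binding proteins induced by mild cold, were both higher in Mid than in HiT, each with a log2 fold change of 0.46 (edgeR FDR 0.000356 and 0.000407). The chaperones *Hsph1* (-0.45, FDR 4.09e-05), *Hsp90aa1* (-0.54, FDR 0.000717) and *Dnajb1* (-0.31, FDR 0.00978) were lower in Mid, and *Hspa1a* was higher (0.68, FDR 0.0139). Of the 9 genes of this list, 3 were higher and 3 lower, 66.7% called against 41.0% of all clusters. Without TMM scaling, 5 of the 11 kinase clusters were higher and 1 lower, 4 core spliceosome clusters were lower and 1 higher, and no chaperone passed as lower.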

How the data were processed

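Soleus RNA of 38 mice was sequenced by nAnT-iCAGE, with 1 library per mouse. The authors trimmed the reads and mapped them to mm10 (GRCm38), with BWA and HISAT2 named in the submitters' processing notes. They grouped the 5′ ends into clusters and deposited, for each cluster and library, a rescued tag count (tags with several mapping places shared out) and a TPM value. The deposited counts are whole numbers without normalization, and the TPM deposited by the authors, scaled to the tags of the library, served only as a side check. The deposited table has 10819 clusters.

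Members were found by their distance to GENCODE vM21 5′ ends, within 500 bp on the same strand. The counts were tested in R 4.3.3 with the quasi-likelihood F test of edgeR 4.0.16 after TMM normalization, with group as the only term. Experiment #1 (28 libraries, 10776 clusters with any tag) and experiment #2 (10 libraries, 10816 clusters) were fitted separately. FDRs were adjusted by Benjamini-Hochberg across every cluster tested, and 0.05 was the threshold. The 95% intervals span 1.96 standard errors of the log2 fold change to each side. They do not widen for small numbers of libraries as the F test does. An interval can therefore leave out 0 where p is not below 0.05. The tests are two-sided. The fits were tested on simulated counts with known changes. No pair of libraries of a group agreed within sampling noise (lowest chi-square per cluster 12.5 over 72 pairs). Alternatives were the likelihood ratio test, DESeq2 1.42.0, a filter on low counts, library size without TMM, upper-quartile scaling, only the groups compared, a joint fit of both experiments (38 libraries), a replicate block, the sequencing lane in experiment #2, and each library left out in turn. A further alternative summed the clusters of each gene, which leaves the counts of the members unchanged, since each had 1 cluster. The alternatives for the interaction terms and for the relation of *Clk1* and *Clk4* were chosen after seeing the data.

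The members and lists were chosen with earlier results of these data known. All clusters of the members are named. Of each list of splicing and temperature genes, the 3 clusters of smallest FDR from the HiT to Mid are named by rule, and any others were named after their values were seen. Marker lists were made for slow muscle, fast glycolytic muscle, adipocytes, red blood cells, neutrophils, macrophages and tendon. Promoter sequences were read from a RefSeq table for 9 of 10 members. The members are paralogs within each family, and how tags with several mapping places were shared out among them cannot be checked from the table. No member had several clusters, so a comparison of promoter use within a gene could not be made.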

Additional observations from a re-analysis of the deposited data

Results flagged for a closer look

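Within 70 groups of a promoter and 4 to 8 libraries, 6 had a library far from the others, by the ratio of its gap to the whole range. Chance flags about 1 in 20 groups. For *Clk2*, Dep 3 read 8.66 CPM (the next library of its group 5.37 CPM) and Mid 3 read 13.2 CPM (next 7.78 CPM). Without Mid 3, the log2 fold change of *Clk2* from the HiT to Mid was 0.15, against 0.32 with it, and neither passed the threshold. For *Clk4*, Post 4 was the lowest of its group at 26.5 CPM (next 29.6 CPM). For *Srsf2*, Mid 2 was the highest at 161 CPM (next 143 CPM). For *Srsf6*, Fed 4 was the highest at 29.2 CPM (next 25.8 CPM) and Pre 4 at 26.3 CPM (next 21.7 CPM). Without Pre 4, *Srsf6* was called higher in Mid than in Pre (log2 fold change 0.25, edgeR FDR 0.0347). With Pre 4 it was not called (0.18, edgeR FDR 0.112).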

How the results depend on the processing

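From the HiT to Mid, *Srsf5* (log2 fold change 0.55 to 0.73), *Clk4* (0.34 to 0.48) and *Srsf7* (-0.53 to -0.42) kept their direction and passed the threshold under all 37 alternatives, with highest FDRs of 0.00489, 0.0369 and 0.0311. Not all 37 could change this much. Summing the clusters of a gene leaves the member counts as they are. Leaving out a Pre, Post, Fed or Dep library keeps all Mid and HiT libraries. Of 3770 values of single members under an alternative, 84 lost and 27 gained a call, and 79 changed sign, none of them called before or after. The counts of members called moved by over 1.5 times as follows. Without TMM they were 0 for Dep against HiT, 1 for Fed against HiT, 0 for Pre and 0 for Post against HiT, 1 for Mid against Fed, 0 for Dep against Mid and 1 for Mid against Pre in experiment #2, and r of *Clk1* and *Clk4* was 0.88. With upper-quartile scaling they were 1 for Fed, 1 for Pre and 3 for Post against HiT, and 1 for Mid against Pre in experiment #2. With only the groups compared they were 0 for Fed against HiT, 1 for Mid against Fed and 0 for Dep against Mid. With DESeq2 2 members were called in Dep against Mid. With the lane as a term they were 1 for Mid against Pre and 1 for Post against Mid in experiment #2. Smaller moves were to 2 for Mid against Pre and 3 for Post against Mid without TMM, to 3 for Dep and 4 for Post against HiT with only the groups compared, and to 2 for Pre and 4 for Post against HiT (both without *Srsf2*) and 5 for Post against Mid (with *Srsf1*) in the joint fit of both experiments. The likelihood ratio test and DESeq2 called 3 for Mid against Pre in experiment #2, and DESeq2 called 4 for Mid against HiT.

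With each library left out in turn, the counts were 3 to 4 for Mid against HiT, 0 to 2 for Dep, 0 to 2 for Fed, 1 to 3 for Pre and 3 to 5 for Post against HiT. They were 3 to 4 for Mid against Pre, 4 to 5 for Post against Mid, 2 to 5 for Mid against Fed and 1 to 2 for Dep against Mid. In experiment #2 they were 0 to 3 for Mid against Pre and 0 to 2 for Post against Mid, and r of *Clk1* and *Clk4* in experiment #1 was 0.74 to 0.83.

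The main fit did not pair libraries by replicate number. Same-numbered libraries of different groups had a median correlation of deviations of -0.01 (-0.41 to 0.50), against 0.01 (-0.54 to 0.70) for other numbers. However, 12 of 24 libraries correlated best with a library of their own number, more than unrelated numbers would give. These values do not settle whether the numbers mark pairs. With the replicate block, 2 members were called in Dep against Mid, and *Srsf1* passed from the HiT to Mid (log2 fold change -0.27, FDR 0.0451), and *Clk2* from the Mid to Post (FDR 0.0337), while *Srsf7* no longer passed from the Fed to Mid (FDR 0.0863).

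Library size without TMM moved the median of all clusters from 0.02 to 0.11 from the HiT to Mid and to 0.21 from the HiT to Fed (-0.01 with TMM), where the called clusters were then 76.3% higher instead of 46.2%. The cause was not tested. Depth limits *Clk3* in experiment #2, with as few as 9 tags per library.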

Other observations

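Marker lists that the comparisons above did not use gave these summed levels in experiment #1. The 9 fast glycolytic muscle genes, all with clusters, summed to 14006 to 15824 CPM in the HiT libraries and 13092 to 21607 CPM in the Mid libraries. The 8 adipocyte genes, all with clusters, summed to 2678 to 3901 CPM in HiT and 2203 to 4768 CPM in Mid. The 5 of 6 red blood cell genes with a cluster (Alas2 had none) summed to 1887 to 3286 CPM in HiT and 2990.3 to 4239 CPM in Mid, with the highest sum of experiment #1 in Fed 2 at 13756 CPM. The 6 tendon genes, all with clusters, summed to 485 to 800 CPM in HiT and 434 to 794 CPM in Mid.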
